A study of Mus musculus with 9 samples.

Results

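The 10 genes described here are Wnt feedback genes, inhibitors of the pathway or relatives of such inhibitors, and they were followed across 3 culture media in organoids grown from mouse prostate basal cells. They were chosen by name, as Axin2, Nkd1, Nkd2, Apcdd1, Tnfrsf19, Notum, Wif1, Sfrp1, Dkk1 and Dkk3, and all 10 were found by gene identifier among the 49585 genes of the files. Of the 10, 9 passed the filter on low values (at least 0.5 CPM, counts scaled to a common library size, in at least 3 libraries), among 15875 genes that did, and Dkk1 did not. RNA was sequenced in 9 libraries, 3 per medium, from basal cells that were sorted from C57BL/6J mice by flow cytometry and cultured for 5 days. RD7 medium held R-spondin1 at 500 ng/ml and dihydrotestosterone (DHT, a potent androgen) at 100 nM. R medium held R-spondin1 at 500 ng/ml and no added DHT. BM medium held neither. The media shared EGF (50 ng/ml), Noggin (100 ng/ml), which blocks BMP ligands, A83-01 (200 nM), which blocks TGF-β receptor kinases, and Y-27632 (10 µM), which blocks ROCK kinases. No medium held DHT without R-spondin1. The labels do not say whether the libraries of a medium came from separate animals, sorts or cultures, so each p-value measures the spread between libraries that may be technical replicates.

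Wnt ligands bind Frizzled receptors and LRP co-receptors and keep β-catenin from being degraded, so that it can act with TCF/LEF factors on its target genes. R-spondins raise the response by sparing Frizzled receptors from the ligases Rnf43 and Znrf3. Cells answer by making inhibitors of the pathway, some inside the cell and some secreted, and several of these are themselves Wnt target genes. In the prostate, epithelium and stroma both make Wnt inhibitors.

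Between 6505859 reads (BM 1) and 24141017 reads (BM 2) were counted per library. Basal marker genes were abundant in every library, with a summed level of 8 markers of 8549 to 9562 FPKM (reads scaled to gene length and to the reads counted in the library) in RD7, 10007 to 10548 in R and 7423 to 8338 in BM. The 10 luminal markers summed to 3798 to 4797 FPKM in RD7, 2726 to 3221 in R and 3455 to 4455 in BM. Of 12 stromal markers, 8 were under 0.5 FPKM in every library, and the sum without Dcn was 2.73 to 3.40 FPKM in RD7, 5.05 to 6.86 in R and 14.7 to 20.6 in BM. Dcn itself, which encodes the matrix proteoglycan decorin, averaged 76.6 ± 14.1 FPKM in RD7, 21.9 ± 2.71 in R and 4.79 ± 1.27 in BM (SD, n = 3 each). The 8 immune markers summed to at most 6.69 FPKM in any library, with Tyrobp at 0 throughout. The 6 endothelial, 5 neuroendocrine and 5 seminal vesicle markers each summed to at most 1.07 FPKM. The 12 markers of squamous differentiation summed to 801 to 891 FPKM in RD7, 1388 to 1628 in R and 602 to 800.1 in BM.

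The feedback and inhibitor genes did not move as a block. Axin2 and Wif1 were high in both media with R-spondin1 and low in BM. Notum, Nkd1 and Apcdd1 were highest in R, and in RD7 they overlapped BM (Notum and Nkd1) or lay below it (Apcdd1). Tnfrsf19 was highest in R and intermediate in RD7. Sfrp1 and Nkd2 were at like levels in R and BM and low in RD7. Dkk3 was highest in BM, lower in R and lowest in RD7, and Dkk1 had no read in any library.

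**Figure D1:**
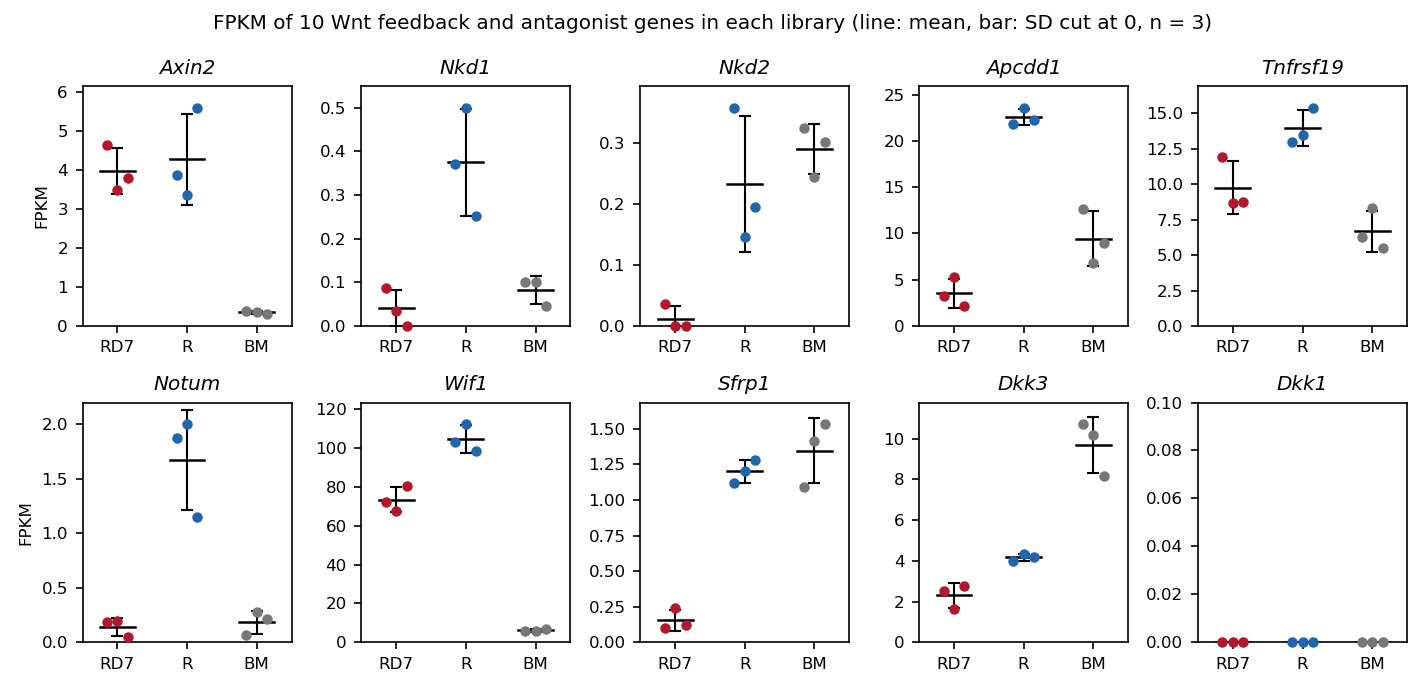
FPKM of each of the 10 genes in every library, with RD7, R and BM from left to right in each panel (points: libraries, line: mean, bar: SD, cut off at 0, n = 3). The axes differ between panels: Wif1 averaged 104 FPKM in R, Nkd1 0.375 and Dkk1 0. Axin2 is high in RD7 and R, whereas Notum, Nkd1 and Apcdd1 are highest in R.

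Axin2 (ENSMUSG00000000142, GRCm38 chromosome 11, 108920349 to 108950783, plus strand, 14 merged exons) encodes a scaffold of the complex that marks β-catenin for destruction and is widely used as a readout of Wnt signaling. It stood at 4.64, 3.49 and 3.79 FPKM in RD7 1 to 3, at 3.88, 3.36 and 5.59 FPKM in R 1 to 3, and at 0.391, 0.346 and 0.315 FPKM in BM 1 to 3. The RD7 and R libraries overlapped and every one of them lay above every BM library. RD7 was 11.3-fold above BM (log2 fold change 2.39 ± 0.19 SE, limma adjusted p = 8.6e-06), and R was 12.2-fold above BM (2.46 ± 0.19, limma adjusted p = 1.8e-05). Here and throughout, a log2 fold change is a difference of log2(FPKM + 0.5), a measure that understates the change of low genes, whereas an n-fold difference is a ratio of mean FPKM. Between RD7 and R, Axin2 was not called (-0.08 ± 0.19, 95% interval -0.50 to 0.35, limma adjusted p = 0.79), and the sign of the difference turned with median-of-ratios scaling (0.01) and with the trend on gene length removed (0.11). The antisense gene Gm11670 shares 3.80% of the exon bases of Axin2, and the kit used does not mark strand, so reads in the shared bases cannot be told apart.

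Nkd1 and Nkd2 encode the Naked cuticle proteins, which bind Dishevelled inside the cell. Nkd1 (chromosome 8, 88521354 to 88594884, plus strand, 12 merged exons) stood at 0.0858, 0.0345 and 0 FPKM in RD7 (7, 3 and 0 reads), at 0.371, 0.5 and 0.253 FPKM in R (27, 53 and 25 reads) and at 0.101, 0.1 and 0.0448 FPKM in BM (3, 11 and 4 reads). The 3 R libraries lay above all others, and the RD7 and BM libraries overlapped. R was 4.57-fold above BM (log2 fold change 0.58 ± 0.12, limma adjusted p = 0.012), a call that limma-voom did not give (adjusted p = 0.051). RD7 was 9.35-fold below R (-0.69 ± 0.12, limma adjusted p = 0.0019). RD7 against BM was not called (-0.11 ± 0.12, 95% interval -0.38 to 0.16). Nkd1 passed the filter through its R libraries alone, so it entered the test only because R was high, and it was not tested when an R library was left out.

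Nkd2 (chromosome 13, 73818534 to 73847631, minus strand, 9 merged exons) had another pattern. It stood at 0.0355, 0 and 0 FPKM in RD7 (3, 0 and 0 reads), at 0.358, 0.146 and 0.195 FPKM in R (27, 16 and 20 reads) and at 0.325, 0.245 and 0.302 FPKM in BM (10, 28 and 28 reads). The R and BM libraries overlapped, and every RD7 library lay below them. With 3 reads over the RD7 libraries, the pooled ratio of RD7 to R was 0.0538 with a 95% counting interval of 0.0108 to 0.165, and that of RD7 to BM was 0.0424 (0.00852 to 0.129). Such intervals and floors reflect counting error alone, since reads from amplified cDNA with no molecular identifiers do not each stand for a molecule. Nkd2 was called lower in RD7 than in R (log2 fold change -0.51 ± 0.12, limma adjusted p = 0.0090) and than in BM (-0.63 ± 0.12, limma adjusted p = 0.0024), and the RD7 against R call was lost when a trend on gene length was taken out (limma adjusted p = 0.076). R against BM was not called (-0.12 ± 0.12, 95% interval -0.38 to 0.14).

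Apcdd1 and Tnfrsf19 encode membrane proteins. The Apcdd1 protein binds Wnt ligands and LRP co-receptors and blocks signaling at the cell surface. Apcdd1 (chromosome 18, 62922231 to 62961179, plus strand, 5 merged exons) stood at 3.21, 5.24 and 2.18 FPKM in RD7, at 21.9, 23.6 and 22.3 FPKM in R and at 12.6, 6.81 and 8.95 FPKM in BM. No group overlapped another, with R highest and RD7 lowest. RD7 was 6.38-fold below R (log2 fold change -2.58 ± 0.28, limma adjusted p = 7.6e-05), the 61st most negative of the 15875 log2 fold changes, and 2.67-fold below BM (-1.33 ± 0.28, limma adjusted p = 0.0044). R was 2.39-fold above BM (1.26 ± 0.28, limma adjusted p = 0.016), a call lost without BM 2 (limma adjusted p = 0.061), R 1 (0.056) or R 2 (0.068). The FPKM of Apcdd1 rests on a length of 2799 bases, read back from the values, against 12884 merged exon bases in GENCODE M21, so its level relative to other genes depends on the gene model.

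Tnfrsf19, also called Troy, encodes a member of the TNF receptor family that is a Wnt target in intestinal stem cells of the mouse. It (chromosome 14, 60963875 to 61046490, minus strand, 12 merged exons) stood at 11.9, 8.65 and 8.72 FPKM in RD7, at 13, 13.5 and 15.4 FPKM in R and at 6.31, 8.30 and 5.47 FPKM in BM. The R libraries were highest, and RD7 lay between R and BM without overlap. R was 2.09-fold above BM (log2 fold change 1.02 ± 0.18, limma adjusted p = 0.0052). RD7 against R just missed the threshold (-0.51 ± 0.18, 95% interval -0.91 to -0.10, limma adjusted p = 0.058), and it was called in 5 of 17 other settings, with limma-voom (adjusted p = 0.042), in the fit of these groups alone (0.028) and without BM 2 (0.035), BM 3 (0.036) or RD7 1 (0.028). RD7 against BM was called (0.52 ± 0.18, limma adjusted p = 0.041) but lost in 11 of 17 settings, among them the fits without BM 1 (0.099), BM 3 (0.10), R 1 (0.059), R 2 (0.060), R 3 (0.052), RD7 1 (0.12), RD7 2 (0.058) or RD7 3 (0.059).

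Of the secreted inhibitors, Notum is a lipase that removes the lipid group Wnt ligands need to bind Frizzled. Notum (ENSMUSG00000042988, chromosome 11, 120653788 to 120661175, minus strand, 13 merged exons) stood at 0.186, 0.196 and 0.0492 FPKM in RD7 (8, 9 and 2 reads), at 1.87, 2.00 and 1.15 FPKM in R (72, 112 and 60 reads) and at 0.0638, 0.275 and 0.212 FPKM in BM (1, 16 and 10 reads). All R libraries lay above all others, and RD7 overlapped BM. RD7 was 11.7-fold below R (log2 fold change -1.74 ± 0.19, limma adjusted p = 8.6e-05). R was 9.12-fold above BM (1.66 ± 0.19, limma adjusted p = 3.0e-04). Notum reached 0.5 CPM in 3 R, 2 BM and 0 RD7 libraries, so it would not have been tested without R, and both calls rest on that group. RD7 against BM was not called (-0.08 ± 0.19, 95% interval -0.51 to 0.34, limma adjusted p = 0.74). The antisense genes Notumos and Myadml2os share 29.4% and 8.72% of the exon bases of Notum. Notumos moved in the same order, with 3, 3 and 0 reads in RD7, 27, 36 and 21 in R and 1, 4 and 5 in BM, so part of either signal may belong to the other gene.

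Wif1 (ENSMUSG00000020218, chromosome 10, 121033960 to 121100650, plus strand, 10 merged exons), whose protein binds Wnt ligands outside the cell, was the most abundant member in the media with R-spondin1. It stood at 72.3, 67.3 and 80.3 FPKM in RD7, at 103, 112 and 98.3 FPKM in R and at 5.76, 5.97 and 7.00 FPKM in BM. Every R library lay above every RD7 library, and every RD7 library far above BM. R was 16.7-fold above BM (log2 fold change 3.96 ± 0.13, limma adjusted p = 2.3e-07), the 7th highest of the 15875 log2 fold changes. RD7 was 11.7-fold above BM (3.45 ± 0.13, limma adjusted p = 4.2e-08) and 1.42-fold below R (-0.51 ± 0.13, limma adjusted p = 0.014). The call against R was lost without R 2 (limma adjusted p = 0.067) or RD7 2 (0.061).

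Sfrp1 encodes a secreted protein with a Frizzled-like domain that binds Wnt ligands. Sfrp1 (chromosome 8, 23411502 to 23449632, plus strand, 3 merged exons) stood at 0.102, 0.239 and 0.122 FPKM in RD7 (8, 20 and 9 reads), at 1.12, 1.2 and 1.28 FPKM in R (78, 122 and 121 reads) and at 1.09, 1.41 and 1.53 FPKM in BM (31, 149 and 131 reads). R lay within the BM range, and RD7 below both. RD7 was 7.76-fold below R (log2 fold change -1.38 ± 0.15, limma adjusted p = 6.3e-05) and 8.69-fold below BM (-1.49 ± 0.15, limma adjusted p = 3.5e-05). R against BM was not called (-0.11 ± 0.15, 95% interval -0.43 to 0.21, limma adjusted p = 0.65).

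The Dickkopf genes differed from each other. Dkk1, whose protein binds LRP co-receptors and blocks them, had 0 reads in all 9 libraries (chromosome 19, 30545863 to 30549665, minus strand). Over the 3 libraries of a group, 3 reads would have been 0.0229 FPKM in RD7, 0.0203 in R and 0.0246 in BM, so a level above that was not seen. Dkk3, a divergent family member whose effect on Wnt signaling is not settled, stood at 2.53, 1.62 and 2.78 FPKM in RD7, at 4.01, 4.35 and 4.17 FPKM in R and at 10.7, 10.2 and 8.15 FPKM in BM (chromosome 7, 112116017 to 112159057, minus strand, 8 merged exons). No group overlapped another, with BM highest and RD7 lowest. RD7 was 1.81-fold below R (log2 fold change -0.76 ± 0.19, limma adjusted p = 0.013) and 4.18-fold below BM (-1.87 ± 0.19, limma adjusted p = 4.5e-05). R was 2.31-fold below BM (-1.11 ± 0.19, limma adjusted p = 0.0036).

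**Figure D2:**
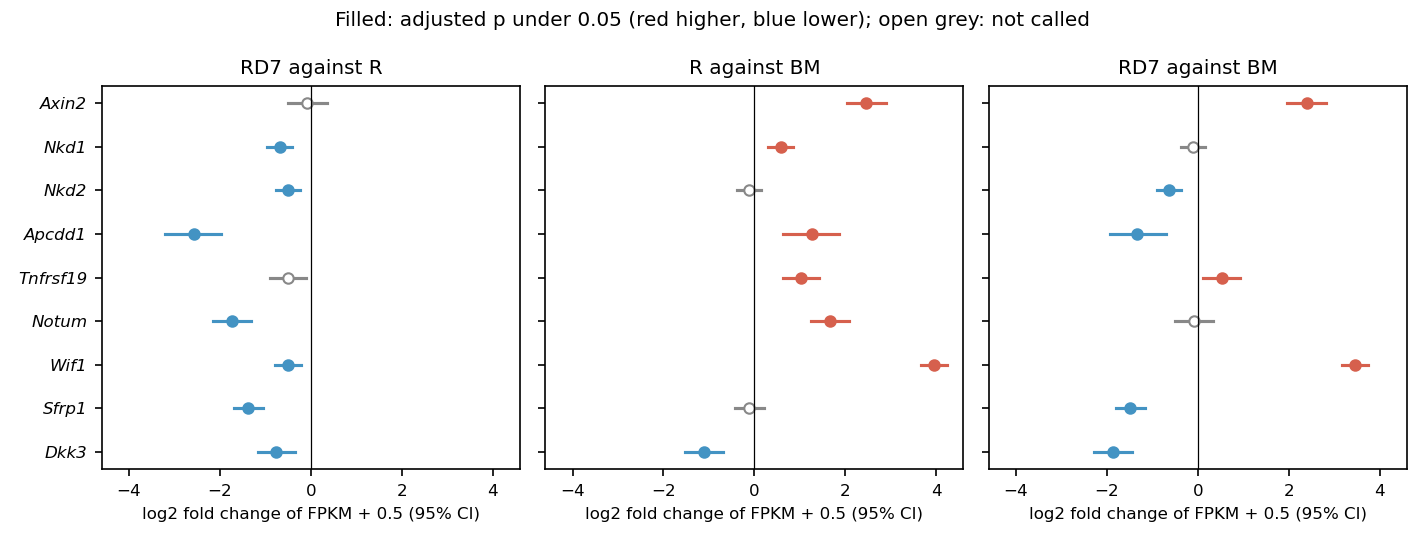
Log2 fold change of FPKM + 0.5 with its 95% interval for the 9 tested genes in the 3 comparisons (filled red: called higher, filled blue: called lower, open grey: not called). No gene lies to the right of 0 as a call in RD7 against R, where Apcdd1 reached -2.58, while Wif1 (3.96) and Axin2 (2.46) lead R against BM.

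Of all genes tested, 10.0% were called in R against BM, 31.1% in RD7 against R and 46.9% in RD7 against BM. R against BM called 6 of the 10 members higher (Axin2, Nkd1, Apcdd1, Tnfrsf19, Notum and Wif1), 1 lower (Dkk3) and 2 not, where 4.38% of all genes tested were called higher and 5.64% lower. RD7 against R called 0 members higher and 7 lower (Nkd1, Nkd2, Apcdd1, Notum, Wif1, Sfrp1 and Dkk3), where 13.4% of all genes were called higher and 17.7% lower. RD7 against BM called 3 higher (Axin2, Wif1 and Tnfrsf19) and 4 lower (Nkd2, Apcdd1, Sfrp1 and Dkk3), where 21.6% of all genes were called higher and 25.4% lower. Nkd1 passed the filter through R alone and so had to be high there. Without it, 5 members were higher in R than in BM, and 6 were lower in RD7 than in R. Notum is still in these counts, and it too needed its R libraries to pass, with 3 at 0.5 CPM in R, 2 in BM and 0 in RD7. The groups did not overlap for 7 members in R against BM, 8 in RD7 against R and 7 in RD7 against BM, against 30.3%, 51.8% and 52.3% of all genes. As a description, the median log2 fold change of the 9 members that passed the filter was 1.02 in R against BM (0.02 over all genes), -0.69 in RD7 against R (-0.09) and -0.11 in RD7 against BM (-0.07). Nkd1 and Notum, which needed R to pass, are in these medians and in the counts without overlap. The medians of -0.69 and -0.11 are the values of Nkd1 itself. No tested member had a positive log2 fold change in RD7 against R with limma, so none was higher at an unadjusted p under 0.05 either, and limma-voom called 0 higher. The comparisons share libraries, R with both R against BM and RD7 against R, so a high R library adds to a rise in the first and to a fall in the second. With median-of-ratios scaling, 53.7% of all calls in RD7 against R were higher, against 42.9% as deposited, and the members called were 0 higher and 7 lower again.

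**Figure D3:**
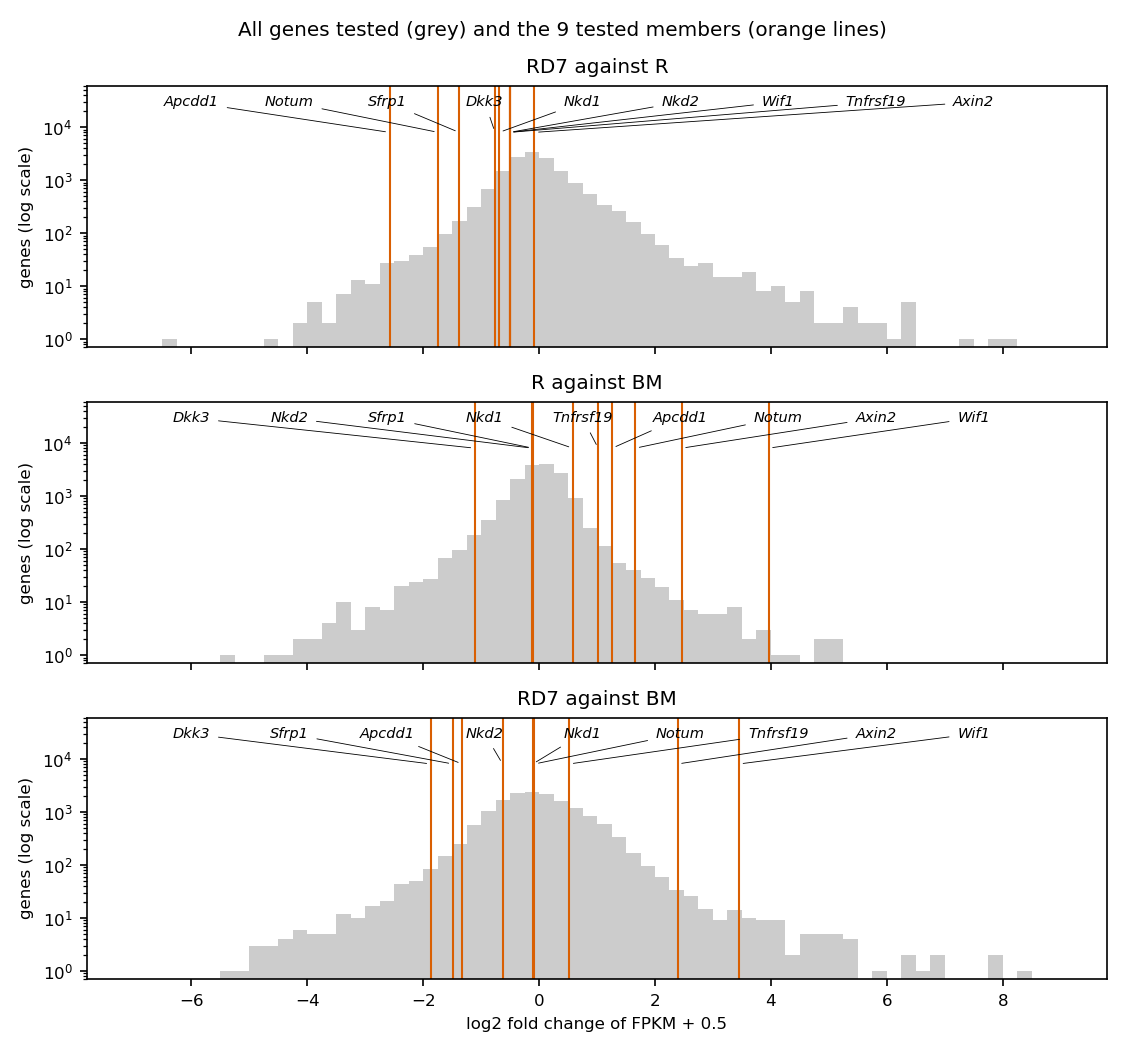
Distribution of log2 fold changes of FPKM + 0.5 over the 15875 genes tested (grey bars, counts on a log scale) with the 9 tested members as orange lines, for RD7 against R, R against BM and RD7 against BM from top to bottom. The members spread from -2.58 (Apcdd1) to -0.08 (Axin2) in RD7 against R, and from -1.11 (Dkk3) to 3.96 (Wif1) in R against BM.

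The order of the levels per length changed with the medium. In RD7, Wif1 (73.3 ± 6.57 FPKM, SD, n = 3) stood above Tnfrsf19 (9.75 ± 1.84), followed by Axin2 (3.97 ± 0.595), Apcdd1 (3.54 ± 1.56) and Dkk3 (2.31 ± 0.611), of which Apcdd1 overlapped both neighbors. Sfrp1 (0.155 ± 0.0742) and Notum (0.143 ± 0.0818) overlapped, as did Notum and Nkd1 (0.0401 ± 0.0432), and Nkd2 (0.0118 ± 0.0205) overlapped Nkd1. In R, Wif1 (104 ± 6.83) was followed by Apcdd1 (22.6 ± 0.861) and Tnfrsf19 (14.0 ± 1.27). Axin2 (4.28 ± 1.17) overlapped Dkk3 (4.18 ± 0.171), Notum (1.67 ± 0.458) overlapped Sfrp1 (1.2 ± 0.0801), and Nkd1 (0.375 ± 0.123) overlapped Nkd2 (0.233 ± 0.111). In BM, Dkk3 (9.66 ± 1.33) and Apcdd1 (9.44 ± 2.92) led and overlapped, Tnfrsf19 (6.69 ± 1.45) overlapped Apcdd1 and Wif1 (6.24 ± 0.661), and Sfrp1 (1.34 ± 0.227) stood apart. Axin2 (0.351 ± 0.0381) overlapped Nkd2 (0.291 ± 0.0411), which overlapped Notum (0.184 ± 0.108), and Nkd1 (0.0820 ± 0.0322) overlapped Notum.

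Ratios within a library, which no scaling between libraries can change, were taken for 4 pairs; the pairs were chosen after their values were seen and were not tested. Axin2 over Notum was 25, 17.8 and 77.2 in RD7, 2.07, 1.68 and 4.86 in R and 6.12, 1.26 and 1.49 in BM, so RD7 stood above R and BM, which overlapped. The Notum values behind this ratio rest on 8, 9 and 2 reads in RD7 and on 1 read in BM 1. Wif1 over Apcdd1 was 22.5, 12.8 and 36.9 in RD7, 4.68, 4.74 and 4.41 in R and 0.458, 0.877 and 0.782 in BM, with no overlap. Wif1 over Dkk3 was 28.6, 41.5 and 28.8 in RD7, 25.6, 25.7 and 23.6 in R and 0.541, 0.587 and 0.858 in BM, so RD7 lay just above R and both lay far above BM. Wif1 over Axin2 was 15.6, 19.3 and 21.2 in RD7, 26.5, 33.3 and 17.6 in R and 14.7, 17.3 and 22.2 in BM, and here all 3 groups overlapped.

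**Figure D4:**
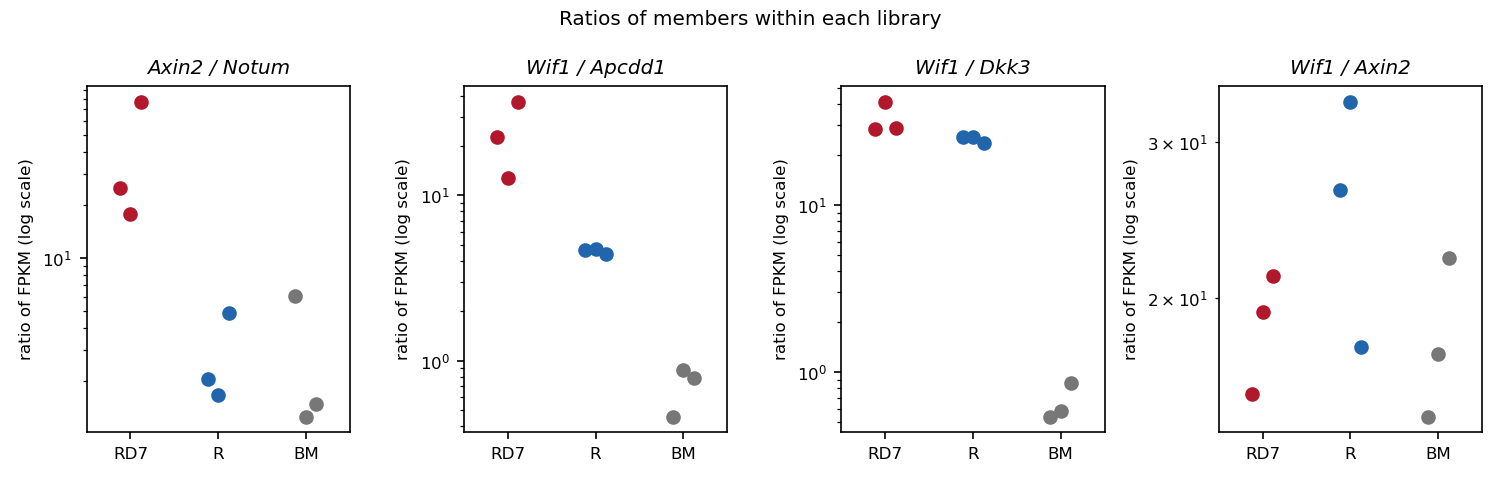
Ratio of FPKM of Axin2 to Notum, of Wif1 to Apcdd1, of Wif1 to Dkk3 and of Wif1 to Axin2 in each library (log scale, with a range of its own in each panel; points: libraries), with RD7, R and BM from left to right. Axin2 over Notum is 17.8 or more in RD7 and at most 6.12 in the other libraries, whereas Wif1 over Axin2 overlaps between all groups. Notum had 8, 9 and 2 reads in RD7 and 1 read in BM 1.

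The sequence before the transcription start was looked at for the members that rose in R. RefSeq promoters (GRCm38.p6) were found for 6 of the 10 members, Axin2, Wif1, Nkd1, Nkd2, Tnfrsf19 (which has a pair of starts) and Dkk1, and the 250 bases before each start were searched on both strands. The letters of a TCF/LEF site were ATCAAAG, its variant TTCAAAG, its variant AACAAAG or its variant TACAAAG, with any of them present in 14.8% of 32851 promoters, and those of a steroid receptor half-site were AGAACA, found in 16.1%. Shown 5′ to 3′, with matches in capitals, are Axin2 and Wif1, the members highest over BM in both R-spondin1 media, Nkd1, which was high in R alone, and the downstream start of Tnfrsf19, which holds a TCF/LEF match. Of the 6 members that rose in R, Axin2, Wif1, Nkd1 and Tnfrsf19 had a sequence to search.
Axin2 (chr11:108920099-108920348, plus strand): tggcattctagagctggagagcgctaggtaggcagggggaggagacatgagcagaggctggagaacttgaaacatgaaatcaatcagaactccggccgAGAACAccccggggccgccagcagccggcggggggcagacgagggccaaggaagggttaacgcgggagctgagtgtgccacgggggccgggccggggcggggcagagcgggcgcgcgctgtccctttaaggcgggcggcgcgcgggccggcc
Wif1 (chr10:121033754-121034003, plus strand): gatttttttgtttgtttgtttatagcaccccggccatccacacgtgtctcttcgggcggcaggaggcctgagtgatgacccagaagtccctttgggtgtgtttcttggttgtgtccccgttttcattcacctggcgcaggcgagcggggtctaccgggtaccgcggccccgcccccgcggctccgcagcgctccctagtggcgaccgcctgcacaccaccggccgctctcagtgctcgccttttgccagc
Nkd1 (chr8:88527383-88527632, plus strand): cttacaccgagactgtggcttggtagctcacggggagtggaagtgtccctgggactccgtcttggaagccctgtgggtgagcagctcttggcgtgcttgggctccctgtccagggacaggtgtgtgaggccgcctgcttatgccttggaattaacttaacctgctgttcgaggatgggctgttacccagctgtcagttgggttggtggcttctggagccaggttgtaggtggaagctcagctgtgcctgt
Tnfrsf19 (chr14:61037988-61038237, minus strand): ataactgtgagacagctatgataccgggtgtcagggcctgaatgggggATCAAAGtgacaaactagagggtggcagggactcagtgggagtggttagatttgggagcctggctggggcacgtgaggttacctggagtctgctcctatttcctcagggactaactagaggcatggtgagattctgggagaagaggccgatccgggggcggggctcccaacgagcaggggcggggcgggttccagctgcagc
Axin2 held 1 half-site, starting at position -152 from the start, and no TCF/LEF match. Tnfrsf19 held ATCAAAG at position -202. Wif1, Nkd1, Nkd2 and the upstream start of Tnfrsf19 held neither motif. The Nkd1 window lies inside the gene, whose span begins at 88521354, so it precedes an internal start. The bases before the outer end of Nkd1 were not searched. Dkk1, which had no reads, held 2 TCF/LEF matches. The windows of Dkk1, of Wif1 and of the downstream Tnfrsf19 start also reach into the spans given for these genes. The matches of Dkk1 and Tnfrsf19 lie within those spans. A match is a run of letters, not a bound site. These windows leave out most of the intron sequence and the distant enhancers where many Wnt-responsive sites lie.

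Of a list of 20 other antagonists of the pathway and their partners, 10 were tested. In RD7 against R, 1 rose and 5 fell (median log2 fold change -0.43), in R against BM 1 rose and 2 fell (-0.24), and in RD7 against BM 1 rose and 6 fell (-0.51). Over all genes, 13.4% were called higher and 17.7% lower in RD7 against R (median -0.09), 4.38% and 5.64% in R against BM (0.02), and 21.6% and 25.4% in RD7 against BM (-0.07). Trabd2b, among the 6 that fell in RD7 against BM, passed the filter through BM alone and lost its call with the length trend removed. Of the 5 that fell in RD7 against R, Shisa3 lost its call in 11 of 17 other settings and Shisa2 in 5 of 17. Sfrp2, a paralog of Sfrp1, stood at 0.0243 ± 0.0421 FPKM in RD7, 0.505 ± 0.168 in R and 0.1 ± 0.0320 in BM, and was called lower in RD7 than in R (limma adjusted p = 4.0e-04) and higher in R than in BM (0.0045). It too passed the filter through its 3 R libraries alone, so both calls rest on the group that let it be tested. Sostdc1, a secreted antagonist of BMP and Wnt signaling, was at 0 in all RD7 libraries, against 0.685 ± 0.182 FPKM in R and 2.18 ± 0.687 in BM, and was at least 21.8-fold lower than in R and 70.1-fold lower than in BM, counted against 3 reads over the RD7 group. Shisa3, which holds back Frizzled maturation, stood at 0.0898 ± 0.00374 FPKM in RD7, 0.265 ± 0.0140 in R and 0.840 ± 0.206 in BM, and fell in R against BM (limma adjusted p = 0.0021) and in RD7 against BM (6.3e-05). Tmem88, a membrane protein that binds Dishevelled, was the gene that rose in RD7 against R, at 5.18 ± 1.45 FPKM in RD7 and 1.85 ± 0.413 in R (limma adjusted p = 0.011). Ndp, counted among those that fell in RD7 against R and against BM, encodes a Frizzled ligand and not an inhibitor.

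Among 21 tested target genes of β-catenin other than the members, R against BM called 4 higher and 1 lower (median log2 fold change 0.08), and RD7 against R called 5 higher and 10 lower (-0.42). Lgr5, an R-spondin receptor gene, had the pattern of Notum and Nkd1, at 0.0132 ± 0.0146 FPKM in RD7, 0.894 ± 0.157 in R and 0.00934 ± 0.00512 in BM, and was called lower in RD7 than in R (limma adjusted p = 4.5e-06); like Nkd1, it passed the filter through its R libraries alone. Sp5, which encodes a transcriptional repressor, ran the other way, at 8.60 ± 1.13 FPKM in RD7, 2.72 ± 0.325 in R and 7.21 ± 0.889 in BM (limma adjusted p = 6.9e-05 for RD7 against R). Lef1, a partner of β-catenin, stood at 1.13 ± 0.227 FPKM in RD7 and 0.00934 ± 0.00708 in BM (limma adjusted p = 7.2e-06). Among 13 Wnt ligand and secretion genes tested, 1 rose and 6 fell in RD7 against R. The ligand gene Wnt5a stood at 0.392 ± 0.1 FPKM in RD7 and 5.42 ± 0.398 in R (limma adjusted p = 4.4e-07). Another that fell was Wnt3a, at 0.148 ± 0.189 FPKM in RD7, 1.2 ± 0.113 in R and 0.0794 ± 0.0383 in BM (limma adjusted p = 2.1e-04 for RD7 against R). Wnt3a reached 0.5 CPM in 3 R, 1 RD7 and 0 BM libraries, so its call rests on the group that let it be tested. Of 16 Wnt receptor genes, 1 rose and 7 fell in RD7 against R, and Fzd10 stood at 0.911 ± 0.322 FPKM in RD7, 4.31 ± 1.22 in R and 0.874 ± 0.271 in BM (limma adjusted p = 3.4e-04). In the same comparison, 3 of 5 R-spondin receptor and ligase genes, 3 of 16 destruction complex genes and 3 of 18 intracellular inhibitors and Dishevelled partners fell, and 0, 0 and 1 rose. The gene that rose, Cxxc4, passed the filter through RD7 alone. Lgr5 and Rnf43, among the R-spondin receptor and ligase genes that fell, are also among the 10 target genes that fell. The members of these lists were not tested as sets. Each count in RD7 against R stands beside the 13.4% and 17.7% of all genes called higher and lower. The count in R against BM stands beside 4.38% and 5.64%.

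**Figure D5:**
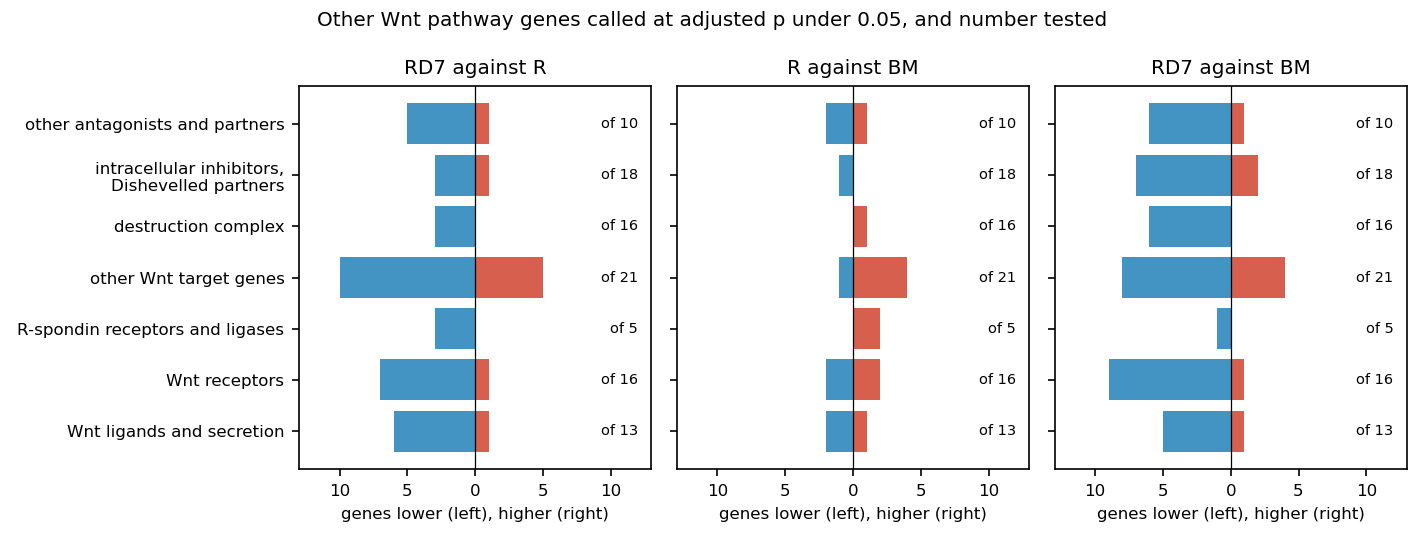
Number of genes called lower (blue, to the left) and higher (red, to the right) in 7 lists of other Wnt pathway genes, with the number tested at the right edge, for RD7 against R, R against BM and RD7 against BM. In RD7 against R, 10 of 21 other target genes were lower and 5 higher. The lists of target genes and of R-spondin receptors and ligases share genes, Lgr5 and Rnf43 among them.

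The genes nearest to Axin2 across the 9 libraries, by Pearson correlation of log2(FPKM + 0.5), were Wipf3 (0.989), Gm11670 (0.988), Gm11940 (0.982), Oasl1 (0.978) and Krt10 (0.978). Gm11670 is the antisense gene that shares exon bases with Axin2. Those nearest to Wif1 were Gm11940 (0.996), Krt10 (0.993), Wipf3 (0.989), Esam (0.987) and Chit1 (0.986), so Wipf3, Gm11940 and Krt10 were near to both. Among those nearest to Dkk3 were Dhx40 (0.990), Wnt7a (0.989), Mgat3 (0.989) and Rassf9 (0.988). They are among the highest over all genes tested, the 9 libraries fall into 3 groups, and they describe the order of the groups.

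Markers of cell state moved between the same libraries. In R against BM, 10 of 11 squamous markers tested rose and 4 of 10 luminal markers fell, where 4.38% of all genes were called higher and 5.64% lower. In RD7 against R, 8 of 11 squamous and 4 of 8 basal markers fell, and 5 of 10 luminal markers rose while 2 fell, where 13.4% of all genes were called higher and 17.7% lower. The sum of all 12 stromal markers was 67.3 to 95 FPKM in RD7, 24.6 to 30.6 in R and 18.6 to 26.9 in BM. It followed Dcn, its most abundant member in RD7 and R, which was highest in RD7. The sum of the other 11, of which 8 were under 0.5 FPKM in every library, ran the opposite way and was lowest in RD7. Of 9 stromal markers tested in RD7 against R, 5 were called lower, 1 (Dcn) higher and 3 not. In bulk RNA, fewer cells that express a gene and less of its RNA per cell cannot be told apart, and the part of these shifts in the results on the inhibitors was not tested.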

How the data were processed

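RNA was measured in 9 libraries, grouped by their titles as RD7, R and BM (3 each). Per the submitters' processing notes, CASAVA 1.9, STAR 2.6.1a, featureCounts, edgeR 3.24.1 and GRCm38 were used, with no role given for each; annotation release, strand setting and filters are not given in the sources used here. The authors deposited FPKM, 1 value per gene identifier and library. Per the labels' protocols, cDNA was amplified with a SMART-Seq kit, which marks no strand and carries no molecular identifiers.

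Symbols and coordinates come from GENCODE M21 (GRCm38), and 259 identifiers were not in it. Reads per gene were read back as FPKM times gene length times library total: with the M21 length they were whole within 0.01 of a read for 22971 of 26813 genes above 0, and a length was fitted for 3842 others (Nkd2, Apcdd1 and Tnfrsf19 among them). Reads counted were 6505859 to 24141017 per library, of which at least 99.989% were read back; a fitted length can miss a common divisor of the reads.

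The 15875 genes that reached 0.5 CPM in 3 or more libraries were analysed on log2(FPKM + 0.5) with limma 3.58.1 (R 4.3.3), a mean for each group fitted to the 9 libraries jointly (residual degrees of freedom 6), eBayes with trend and robust settings, two-sided, Benjamini-Hochberg over these genes, called under 0.05. The procedure was checked on simulated reads. Alternatives were pseudocounts of 0.1 and 1, no filter, median-of-ratios scaling, limma-voom on reads read back, the fit of 2 groups, the replicate number as a block, a length trend removed, and leaving out each library. Members and gene lists were chosen with earlier results of these data known. Named were the members, up to 4 called genes per list and comparison with the largest change, and the 5 genes nearest to Axin2, Wif1 and Dkk3, of which 1 is not reported here; list genes are shown where every setting that tested them kept the call.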

Additional observations from a re-analysis of the deposited data

How the results depend on the processing

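Among the values of the tested members under other settings, 418 kept their direction and side of the threshold, 18 were no longer called, 5 became called and 7 changed sign, all 7 of results that were not called. Axin2 in RD7 against R had a log2 fold change of 0.01 with median-of-ratios scaling, 0.11 with the length trend removed and -0.22 to 0.11 when 1 library was left out. Notum in RD7 against BM had -0.22 to 0.03 when 1 library was left out, and Nkd1 in RD7 against BM 0.09 with the length trend removed; the cause was not tested.

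When 1 library was left out, the members called in R against BM were 4 to 6 higher and 1 lower, in RD7 against R 0 higher and 5 to 8 lower, and in RD7 against BM 2 to 3 higher and 4 lower. Over all genes, R against BM gave 338 to 2082 higher (695 with all libraries, 2082 without BM 3) and 550 to 1255 lower (895), RD7 against R 1335 to 2624 higher (2120) and 1678 to 3102 lower (2816), and RD7 against BM 2078 to 4071 higher (3424) and 2606 to 4371 lower (4028). These counts moved by over 1.5 times without BM 1, BM 3, R 1, R 2 or R 3 in R against BM, without R 2, R 3 or RD7 2 in RD7 against R, and without RD7 2 in RD7 against BM. With the replicate number as a block, R against BM gave 461 higher, and among the members the block ended only the call of Tnfrsf19 in RD7 against BM (limma adjusted p = 0.075). The numbers did not pair the libraries: deviations of same-numbered libraries correlated at -0.521 to 0.271 over 9 pairs, and not every library correlated best with its own number. Nkd1, with 10 reads in RD7 and 18 in BM, and Nkd2, with 3 reads in RD7, are limited by depth, and no relation within batches could be given because the labels name no batch.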
